A study of Canis lupus familiaris with 36 samples.

Results

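The canine miRNAs from miR-8788 to miR-8908 were examined in small RNA of the dog heart. All names with a number in this range were taken from the deposited table, whatever their letter or arm, and each mature name was counted once. The rule selects by name only and uses no measured value, although the range itself was picked with earlier results of these data known. It gave 137 of the 453 mature miRNAs in the table, and 316 carried other names. Of the 121 numbers in the range, 120 were present, and miR-8788 had no entry. Cardiac hemangiosarcoma (HSA), a malignant tumor of endothelial cells, was represented by 6 libraries, and cardiac control tissue by 6 libraries from dogs that had died of non-neoplastic causes. Each library was made from whole formalin-fixed, paraffin-embedded tissue of a single dog, labelled as heart and archived in 1 diagnostic laboratory. HSA libraries can thus hold tumor and other tissue in unknown parts. In such bulk samples, fewer cells of a type and less RNA per cell cannot be told apart. The splenic libraries of the study, 18 HSA and 6 control, were not analysed here.

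The deposited labels contradict themselves for all 12 cardiac libraries, because a library titled as tumor carries the control condition in its treatment field, and the reverse. The title was used for grouping, and the treatment field would reverse every direction given here. No batch of sequencing is named in the files, and HSA and control libraries follow separate naming formats, so batch and condition cannot be told apart. According to the paper, the HSA dogs of the study were significantly older than the controls. Earlier chemotherapy was neither a reason for exclusion nor used to divide the dogs. Age and treatment can thus not be told apart from condition either. After entries with identical names and counts were merged, control libraries held 6999830 to 11668822 counts and HSA libraries held 2018959 to 8999025. CPM are counts scaled to a common library total, and the CPM of this paragraph are TMM-normalized, a further scaling explained below. MiRNAs typical of heart muscle summed to 126957 to 187400 CPM in control and to 683 to 161445 CPM in HSA. MiR-126, the endothelial miRNA, lay at 2371 to 4213 CPM in control and at 944 to 4295 CPM in HSA. The 5 blood cell miRNAs reached 5147 to 12635 CPM in control and 2806 to 36366 CPM in HSA, the 8 epithelial ones 9.88 to 23.8 and 80.7 to 13773 CPM, and the 3 liver ones 157 to 261 and 339 to 216640 CPM. HSA replicate 3 had both the highest liver sum, 216640 CPM, and the lowest heart muscle sum, 683 CPM. The epithelial sum was highest in HSA replicate 5. By title, 4 of the 5 blood cell miRNAs, 3 of the 4 tested epithelial ones and 3 of the 3 liver ones passed the test described below as higher in HSA. The 6 heart muscle miRNAs and miR-126 were called in neither direction, and no miRNA of these lists was called lower. The part of these tissue differences in the results below was not tested.

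MiRNAs are short RNAs that are cut from hairpin precursors and guide the silencing complex to messenger RNAs through pairing with their seed, near the 5′ end. The miRNA registry numbers them in the order of their registration, so neighboring numbers share a time of entry and not a function. Closely related mature sequences share a number and differ by a letter, and the endings 5p and 3p name the arms of the hairpin. Numbers were shared by several mature names in 7 cases, with 24 names in all, and the other names stood alone. For 12 mature miRNAs of the range, several precursors were listed with the same counts, and a read on these cannot be assigned to a precursor.

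Neighboring genes were read from the RefSeq gene table of assembly UU_Cfam_GSD_1.0, in which 145 of the 154 precursors were found. The authors counted on CanFam3.1, so the order of genes is given without positions. The precursors of the miR-8908 family lie next to each other, starting after SLITRK2 with MIR8908C, MIR8908E and MIR8908B and continuing with the precursors of miR-8908d and miR-8908a. MIR8908F follows after 1 further locus. MIR8859A and MIR8859B are direct neighbors, and the next gene is CDKN1C, which encodes an inhibitor of cyclin-dependent kinases. MIR8884 lies next to SEL1L, which encodes a part of the machinery for degradation of misfolded proteins in the endoplasmic reticulum. MIR8803 lies next to CRTC1, which encodes a coactivator of CREB.

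Most of these miRNAs were not found in the heart. Reads were counted on 31 of the 137 names (22.6%), and 106 had no read in any of the 12 libraries. Among the 316 other miRNAs, 289 had a read (91.5%). Reads in all 12 libraries were found for 4 of the numbered miRNAs, namely miR-8859a, miR-8859b, miR-8884 and miR-8803, and for 212 of the others. The total over the 12 libraries reached 10 counts for 14 names, 100 counts for 10 names and 1000 counts for 6 names. MiR-8859a alone held 90.3% of the 105677 counts on the set. A name with no read in a library may still have been present below the level of 3 counts, which corresponded to 0.306 to 0.482 CPM in control and 0.332 to 1.35 CPM in HSA after TMM normalization, the scaling of each library to the bulk of its miRNAs. These limits cover counting error only.

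**Figure D1:**
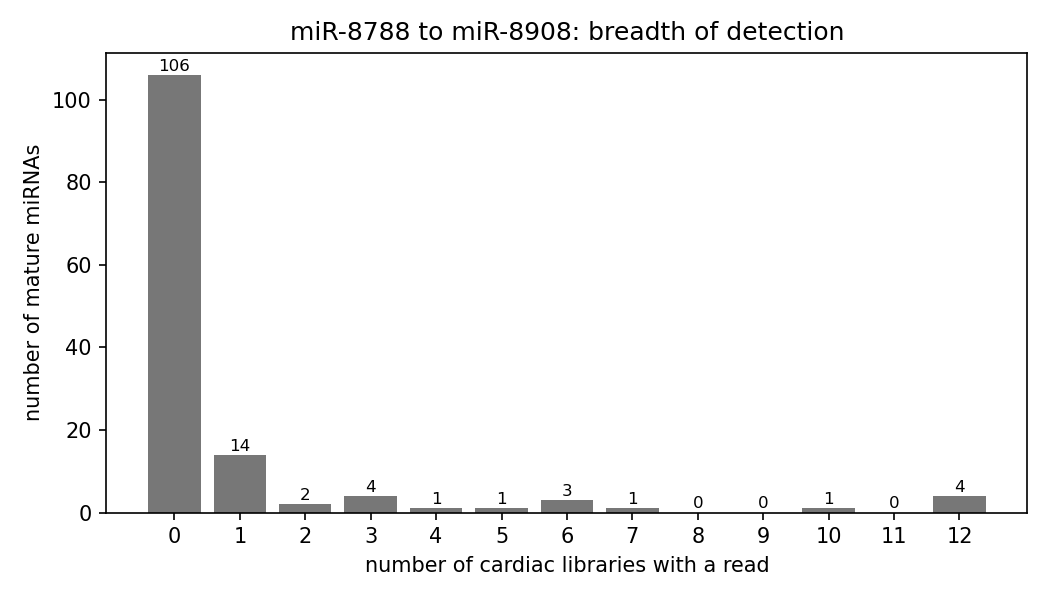
Number of the 137 mature miRNAs (vertical axis) by the number of cardiac libraries in which they had a read (horizontal axis, 0 to 12). The bar at 0 holds 106 names, the bar at 1 library holds 14 and the bar at 12 libraries holds 4.

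When the 320 miRNAs with a read were ranked by mean TMM-normalized CPM, miR-8859a stood at rank 54 and miR-8859b at rank 142. No other numbered miRNA was among the upper 160. MiR-8884 followed at rank 178, miR-8908b at 180, miR-8908d at 186, miR-8908a-3p at 188, miR-8865 at 203, miR-8908a-5p at 212, miR-8908c at 240 and miR-8803 at 241. This ranking pools both conditions. The mean of miR-8908b was 0.252 CPM in control and 32.0 CPM in HSA, whereas that of miR-8884 was 14.0 CPM in control and 20.1 CPM in HSA, so the order does not describe either condition alone. Levels of a mature miRNA are not corrected for length, since mature miRNAs differ little in it, but the efficiency of capture differs between miRNAs and limits such a ranking.

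More of the names were detected in HSA than in control. Control replicates 1 to 6 had reads on 6, 12, 6, 6, 7 and 5 names, and HSA replicates 1 to 6 had reads on 9, 13, 9, 15, 17 and 17. The groups overlapped only through control replicate 2, which had more names than HSA replicates 1 and 3. The means were 7.00 ± 2.53 in control and 13.3 ± 3.67 in HSA (SD, n = 6), and the difference of 6.33 had p = 0.0152 in a two-sided exact permutation test (0.0303 after Benjamini-Hochberg adjustment over the 2 tests of this kind). The HSA libraries were the smaller ones. With every library reduced by calculation to the smallest total, 1656084 counts with 1 entry per mature miRNA, 12.0 names were expected in HSA and 5.73 in control (p = 0.00649, exact permutation test). The other miRNAs were detected in numbers of 238 to 246 in control and 244 to 265 in HSA.

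Names with few reads made up much of the difference. At a minimum of 3 counts per library it was 4.33 names (p = 0.0281, exact permutation test), and at a minimum of 10 counts it was 2.50 names (p = 0.182, exact permutation test). Reads were found in both conditions for 13 names, in HSA only for 18 and in control only for 0. This split was not counted for the 316 other miRNAs, so it cannot be called particular to the set. Of the 18 names with reads in HSA only, 14 had reads in a single library, with at most 6 counts in total. Of these, 6 were in HSA replicate 5 and 5 in HSA replicate 6. The miR-8908 family, described below, contributed as well. Without its names, 5, 8, 6, 6, 5 and 5 names were detected in control and 8, 7, 8, 9, 14 and 11 in HSA, a difference of 3.67 (p = 0.00866, exact permutation test, chosen after the data were seen).

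**Figure D2:**
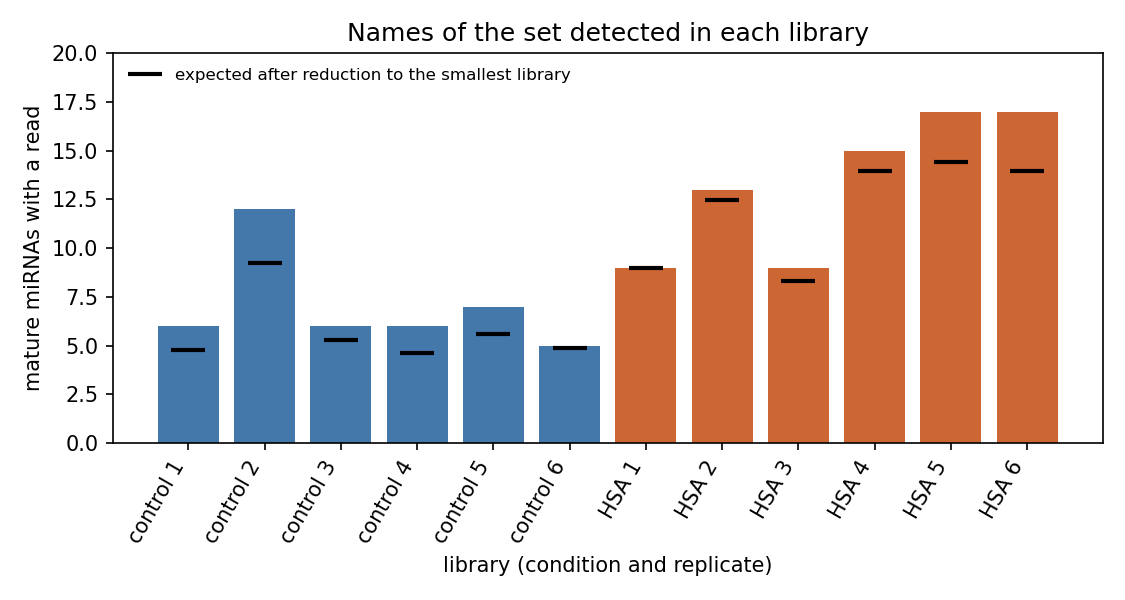
Number of the 137 mature miRNAs with a read (vertical axis) in each of the 6 control (blue) and 6 HSA (orange) libraries. Black marks give the number expected after reduction to the smallest library, and control replicate 2, with 12 names, stands above the other 5 control libraries.

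The whole set took a small share of the counts. The share was 0.133%, 0.133%, 0.125%, 0.177%, 0.162% and 0.144% in control replicates 1 to 6 and 0.136%, 0.263%, 0.240%, 0.234%, 0.152% and 0.131% in HSA replicates 1 to 6, with totals over 1 entry per mature miRNA. HSA replicates 2, 3 and 4 lay above the control range, and the other 3 HSA libraries lay within it. The difference in means, 0.192% against 0.146%, did not pass the exact permutation test (p = 0.123). Its direction depended on the scaling, since the summed TMM-normalized level was 1402 CPM in control and 1281 CPM in HSA (p = 0.496, exact permutation test). Without miR-8859a, the share was 0.0298% ± 0.0211 in HSA and 0.00742% ± 0.000257 in control (SD, n = 6), and every HSA library was above every control library (p = 0.00216, the smallest value an exact permutation test can give with 6 against 6). This share holds the counts of miR-8859b, miR-8884, miR-8865 and the miR-8908 family, all described below. In HSA replicates 1, 3 and 5 its largest part was miR-8859b, with 0.00863%, 0.00634% and 0.00684% of the library total. The whole share in these libraries was 0.0137%, 0.0126% and 0.0121%. It is scaled by library total only.

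For the comparison of single miRNAs, edgeR's quasi-likelihood test was run over all miRNAs after a filter on low counts, which 225 mature miRNAs passed. Only 5 of the 137 names (3.65%) passed it, against 220 of the 316 others (69.6%). A miRNA was called when its Benjamini-Hochberg adjusted p was below 0.01 and its log2 fold change, HSA against control, was 1 or more in size. Of the 5, 1 was called higher in HSA, miR-8865, and 0 lower. MiR-8865 passed the filter through its HSA counts alone. Neither its call nor the separation of its conditions given below is therefore independent of the filter. Over all tested miRNAs, 18.7% were called higher and 7.11% lower, or 25.8% in either direction. At an unadjusted p under 0.05, 0 of the 5 were lower in edgeR, and DESeq2 and limma also called 0 lower. The median log2 fold change was -0.10 for the 5 and 0.34 for all tested miRNAs, so unchanged miRNAs do not sit exactly at 0 on this scale. With scaling by library size only, the median of all was 0.97.

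MiR-8865 was the 1 numbered miRNA whose conditions did not overlap. Among all tested miRNAs, 15.1% had every HSA library above every control library and 10.7% the reverse, or 25.8% in either direction. The control libraries had 0, 3, 4, 1, 0 and 6 counts of miR-8865, or 0, 0.306, 0.431, 0.129, 0 and 0.965 TMM-normalized CPM. The HSA libraries had 39, 50, 60, 195, 44 and 35 counts, or 17.5, 5.54, 18.7, 43.1, 8.25 and 4.11 CPM. Thus each HSA library held at least 35 counts and no control library more than 6, although the control libraries were on average larger. The HSA level itself varied widely, and HSA replicate 4 had the highest value. The log2 fold change was 5.66 (standard error 0.92, 95% interval 3.66 to 7.66, adjusted p = 0.00105 in edgeR), or 5.32 above the median of all tested miRNAs. Since control replicates 1 and 5 had no read and replicate 4 a single one, the size of this fold change depends on how low counts are treated, and it was 3.57 with limma on log2 of the deposited CPM plus 1. It remained called with each library left out in turn, with log2 fold changes of 4.79 to 6.30.

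Over the 12 libraries, the miRNAs ordered most like miR-8865 were miR-98, a let-7 family member, with a Spearman rho of 0.96, miR-32 with 0.95 and miR-362 with 0.95. Among the tested numbered miRNAs, miR-8884 was nearest with 0.57. These correlations are a description. They share the libraries and the difference between the conditions.

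**Figure D3:**
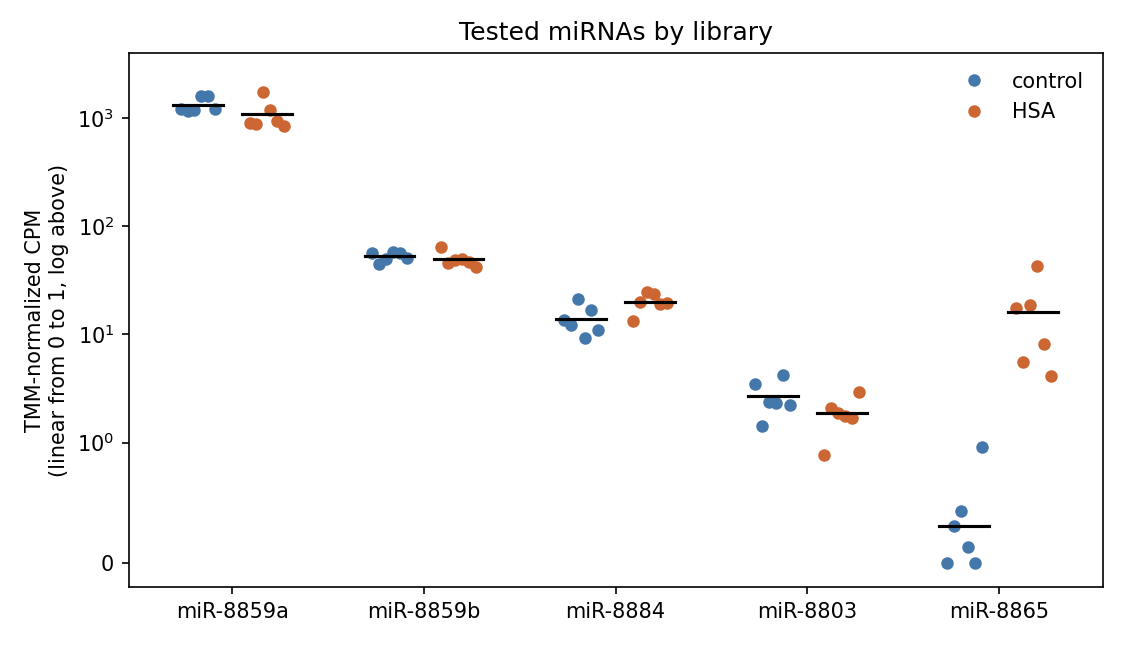
TMM-normalized CPM (vertical axis, linear from 0 to 1 and logarithmic above) of the 5 tested miRNAs in the 6 control (blue) and 6 HSA (orange) libraries, with black lines at the means. The conditions are separate for miR-8865 and overlap for the other 4.

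MiR-8859a, miR-8859b and miR-8884 were the candidate normalizers for qPCR in the study, picked for even levels in data that include these libraries, so their evenness here is not independent evidence. MiR-8859a, the most abundant of the set, had 8822, 11499, 11018, 12334, 10939 and 7572 counts in control and 2018, 7907, 5630, 5382, 5045 and 7233 in HSA. After TMM normalization these were 1172 to 1596 CPM in control (median 1218) and 848 to 1752 CPM in HSA (median 925). HSA held both the lowest and the highest value, the latter in replicate 3, and 4 of the 6 HSA libraries lay below the control range. The 95% interval of its log2 fold change of -0.29 was -0.72 to 0.13. Without HSA replicate 3 the log2 fold change was -0.48 (adjusted p = 0.0176 in edgeR), short of the threshold for a call. It was -0.52 without HSA replicate 1 and -0.58 without HSA replicate 4.

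MiR-8859b had 409, 438, 467, 448, 394 and 314 counts in control and 143, 413, 157, 227, 247 and 357 in HSA. The normalized levels were 44.6 to 58.0 CPM in control and 41.9 to 64.1 CPM in HSA, with medians of 53.5 and 47.6. Its coefficient of variation over the 12 libraries was 12.8%, the lowest of the 225 tested miRNAs on the TMM scale. That of miR-8859a was 24.9% (rank 30), that of miR-8884 was 30.0% (rank 45), that of miR-8803 was 39.8% (rank 77) and that of miR-8865 was 156% (rank 204). The log2 fold change of miR-8859b was -0.10, with a 95% interval of -0.49 to 0.30. It was -0.44 without HSA replicate 1 (adjusted p = 0.123 in edgeR) and -0.35 without HSA replicate 4 (adjusted p = 0.217 in edgeR). The median of all tested miRNAs also moved in these fits, from 0.34 with all libraries to 0.076 and 0.16. The shifts of miR-8859b are therefore not its own alone.

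Although miR-8859a and miR-8859b share a number and come from neighboring precursors, they did not keep a fixed ratio. There were 21.6 to 27.8 counts of miR-8859a for each count of miR-8859b in control and 14.1 to 35.9 in HSA. The ratio does not depend on the scaling of the libraries. In HSA it was spread to both sides of the control range. The Spearman rho between the levels of the pair was 0.50 over the 12 libraries. The other miRNAs ordered most like miR-8859a were miR-191 (0.83), miR-365 (0.83) and miR-1301 (0.82), and for miR-8859b they were miR-345 (0.67), miR-193b (0.62) and miR-208a (0.61), the last of which is encoded within a myosin gene of heart muscle.

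MiR-8884 had 98, 119, 198, 72, 116 and 69 counts in control and 30, 181, 80, 108, 101 and 165 in HSA. The normalized values were 13.5, 12.1, 21.3, 9.32, 16.9 and 11.1 CPM in control and 13.5, 20.0, 24.9, 23.9, 18.9 and 19.4 CPM in HSA. Most HSA libraries lay above most control libraries, but the ranges overlapped. The log2 fold change of 0.52 had a 95% interval of -0.07 to 1.10, which leaves room for a 2-fold rise, and was 0.18 above the median of all tested miRNAs. Without HSA replicate 4 it was 0.23 (adjusted p = 0.573 in edgeR), in a fit where the median of all tested miRNAs was 0.16. Scaling by library size only took miR-8884 past the threshold (log2 fold change 1.13, adjusted p = 0.00930 in edgeR), under a scaling that called 30.2% of all tested miRNAs higher. The ratio of miR-8859a to miR-8884 counts was 55.6 to 171 in control and 43.7 to 70.4 in HSA. MiR-15b (0.79), miR-1838 (0.78) and miR-29a (0.78) were ordered most like miR-8884.

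MiR-8803, the fifth miRNA tested, was low in every library. It had 25, 14, 22, 18, 29 and 14 counts in control and 2, 19, 6, 8, 9 and 25 in HSA. The levels were 1.43 to 4.21 CPM in control and 0.897 to 2.93 CPM in HSA, with overlap. Its log2 fold change was -0.47 (standard error 0.34, 95% interval -1.21 to 0.27, adjusted p = 0.261 in edgeR), and it was -0.30 without control replicate 5 and turned to 0.13 with scaling by library size only.

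**Figure D4:**
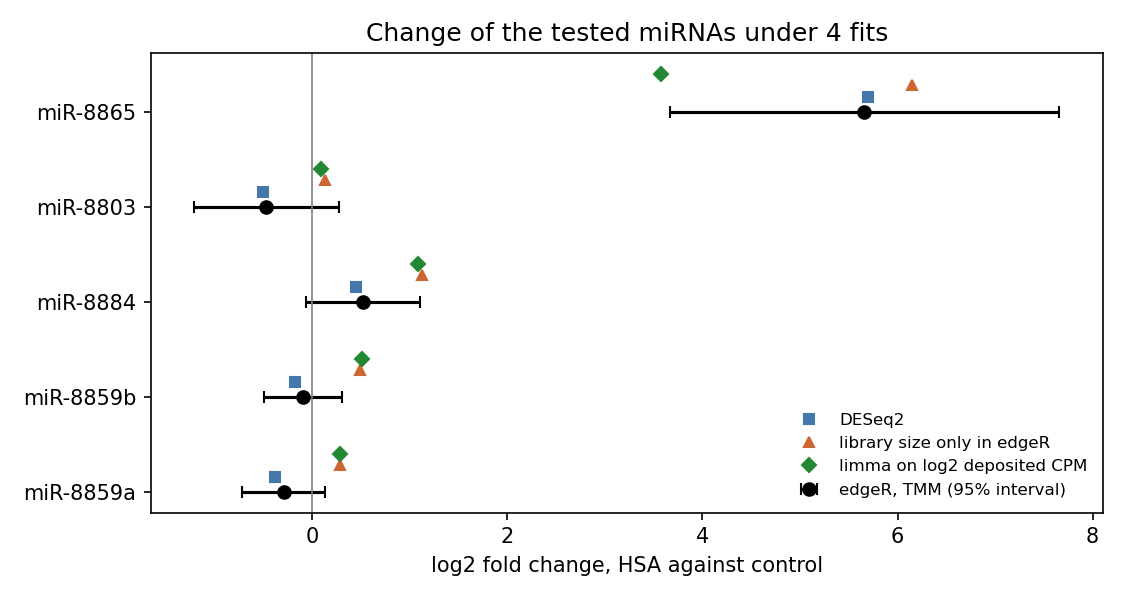
Log2 fold change of HSA against control (horizontal axis) for the 5 tested miRNAs. Black points with bars give edgeR's estimate after TMM normalization and its 95% interval, and colored symbols give DESeq2, edgeR with library size only and limma. MiR-8865 lies between 3.57 and 6.14, while miR-8859a, miR-8859b and miR-8803 change side with the scaling.

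The miR-8908 family was spread very unevenly over the libraries. It has 7 names in the table, and 6 had reads, with miR-8908e at 0 in all 12 libraries. The family had 1, 59, 0, 0, 5 and 0 counts in control replicates 1 to 6 and 1, 1043, 1, 1419, 10 and 1656 in HSA replicates 1 to 6. HSA replicates 2, 4 and 6 therefore held more than 1000 counts each, whereas HSA replicates 1, 3 and 5 held 10 or fewer. On the TMM scale the sums were 0.138, 6.01, 0, 0, 0.727 and 0 CPM in control and 0.448, 116, 0.311, 314, 1.87 and 194 CPM in HSA. The conditions overlapped, since control replicate 2 was above HSA replicates 1, 3 and 5, and control replicate 5 was above HSA replicates 1 and 3.

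The members were high in the same libraries. MiR-8908b had 366, 361 and 607 counts in HSA replicates 2, 4 and 6, 4 in HSA replicate 5, 12 in control replicate 2 and 2 in control replicate 5. MiR-8908a-3p had 290, 396 and 317 counts in the same 3 HSA libraries, and miR-8908a-5p, from the other arm, had 232, 136 and 184. MiR-8908d had 116, 429 and 445. Both rarer members, miR-8908c with 35, 74 and 65 counts and miR-8908f with 4, 23 and 38, had no read in any other library of either condition. The HSA mean of miR-8908c was 11.9-fold the level of 3 counts per library averaged over the control libraries, and that of miR-8908f was 4.25-fold. Both means come from HSA replicates 2, 4 and 6 alone. These members were named for having 3 counts in 3 libraries of 1 condition and none in the other. High ratios thus follow from the choice and are not evidence of a difference between the conditions. The Pearson correlation of miR-8908b with miR-8908a-3p over the 12 libraries was 0.99, which rests on the same 3 libraries. Since the names stand for related sequences, a read may have been counted on more than 1 of them.

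The composition of the family differed between these 3 libraries. MiR-8908b made up 35.1% of the family's counts in HSA replicate 2 (95% Wilson interval 32.3 to 38.0), 25.4% in replicate 4 (23.2 to 27.8) and 36.7% in replicate 6 (34.4 to 39.0). MiR-8908d made up 11.1% in replicate 2 (9.35 to 13.2), 30.2% in replicate 4 (27.9 to 32.7) and 26.9% in replicate 6 (24.8 to 29.1). Replicate 2 thus had less miR-8908d for its miR-8908b than the others. The share of miR-8908a-5p was 22.2% in replicate 2 (19.8 to 24.9), 9.58% in replicate 4 (8.16 to 11.2) and 11.1% in replicate 6 (9.69 to 12.7). The ratio of the arms of miR-8908a, with miR-8908a-3p at 27.8%, 27.9% and 19.1%, was accordingly not constant. These intervals reflect counting error alone. They are too narrow if PCR copies of a molecule were counted as separate reads. The methods name no removal of such copies for the cardiac libraries.

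No member of the family passed edgeR's filter, which asks for the equivalent of 10 counts in at least 6 libraries. DESeq2, which gave an adjusted p to 301 miRNAs and called 17.3% of them higher, called 4 of the 6 members with reads, with adjusted p-values of 0.000778 for miR-8908b, 0.00135 for miR-8908a-3p, 0.00502 for miR-8908a-5p and 0.00641 for miR-8908c. MiR-8908d (0.0478) and miR-8908f (0.0488) were not called. The DESeq2 log2 fold change of miR-8908b was 6.92 with a standard error of 1.84. In edgeR without the filter, the adjusted p-values of the 6 members were 0.0141 to 0.0309, and none was called. The 2 tools therefore give different calls for the same counts, in which 3 of 6 HSA libraries carry the difference. The miRNAs ordered most like the sum of the family, a comparison chosen after the values were seen, were miR-34c (Spearman rho 0.80), miR-1836 (0.72) and miR-1296 (0.69). MiR-34c had 0 to 2 counts in control and 2 to 43 in HSA.

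**Figure D5:**
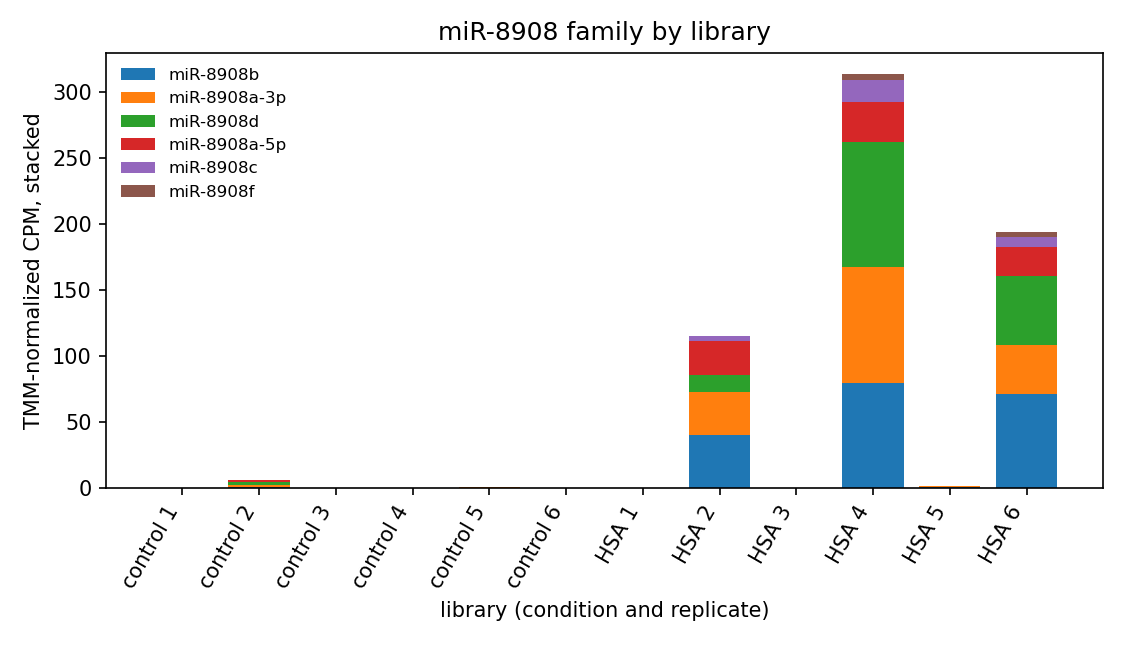
TMM-normalized CPM (vertical axis, stacked by member) of the miR-8908 family in the 6 control and 6 HSA libraries. HSA replicates 2, 4 and 6 reach 116, 314 and 194 CPM, and control replicate 2 reaches 6.01 CPM.

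The other 20 miRNAs with reads had totals of 1 to 22 counts over the 12 libraries, and none was tested by edgeR. The most abundant of them were spread over both conditions. MiR-8858 had 3, 1, 7, 0, 0 and 0 counts in control and 6, 0, 4, 1, 0 and 0 in HSA. MiR-8890 had 3 counts in control replicate 2, 5 in HSA replicate 1 and 6 in HSA replicate 4. MiR-8876 had 2 and 4 counts in control replicates 4 and 5 and 4 in HSA replicate 6. MiR-8903 had 1, 2, 4 and 2 counts in HSA replicates 1, 2, 3 and 5 and no read in control. These miRNAs were named after their values were seen, and at such counts a difference between the conditions was not detectable.

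Shared numbers otherwise rarely meant shared detection. Of the 7 names under number 8799, miR-8799c and miR-8799d had 5 counts each, all in HSA replicate 6, and the other 5 had none. Number 8791 had 1 count on 1 of its 2 names. The paired names of numbers 8834, 8873 and 8904 had no read. The miR-8859 pair and the miR-8908 family were thus the only numbers with several names that reached 100 counts, with 99413 and 4195 counts in total.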

How the data were processed

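Reads were trimmed (Cutadapt), mapped to the CanFam3.1 genome (Bowtie) and assigned to miRBase miRNAs (HTSeq) by the authors. Libraries were made with a NEXTflex kit according to the methods and a QIAseq kit according to the labels. The deposited tables hold raw counts for 517 entries, each a mature miRNA with a precursor, and CPM that the authors computed from the counts (recomputed here within 0.00499 CPM). Entries with the same mature name and identical counts were merged, leaving 474. For a name with several entries, the one with the highest total was used. Libraries were grouped by title.

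Counts were tested with edgeR 4.0.16 (quasi-likelihood F test, TMM factors, R 4.3.3) over 244 entries that passed the default filter, equivalent to 10 counts in a library of median size in at least 6 libraries. Standard errors were taken as the size of the log2 fold change over the root of F. Per-library quantities were compared by exact permutation in Python 3.11.15 with scipy 1.17.1. Scripts were tested on simulated data. Alternatives were median-of-ratios factors, library size only, DESeq2 1.42.0, limma 3.58.1 on log2 of the deposited CPM plus 1, other filters, 1 entry per mature miRNA, an adjusted p of 0.05, the replicate number as a block and each library left out. Nothing in the labels ties replicate numbers across conditions.

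Values were given for called miRNAs, the normalizers, the 10 highest by mean level, those without overlap, and those under the filter with 3 counts in 3 libraries of 1 condition and none in the other. The number range that defines the members, and the lists, were chosen with earlier results of these data known, while membership follows from the name alone.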

Additional observations from a re-analysis of the deposited data

Results flagged for a closer look

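In each condition of 6 libraries, the highest or lowest value was marked when its distance to the nearest other value, relative to the whole range, exceeded Dixon's 95% critical value for 6 values. This marked 7 of 28 groups of values. The critical value assumes normally distributed values, which counts with many zeros are not, so no rate expected by chance is given. For miR-8908d and miR-8908a-5p, control replicate 2 alone had reads among the control libraries, and the mark was fixed by that. The HSA value of miR-8865 in replicate 4, 43.1 CPM, stood above the other 5. The HSA value of miR-8859b in replicate 1, 64.1 CPM, stood above the others, in the library with the lowest total. The remaining 5 marks all concern control replicate 2, and 4 of them the same family of related names. It had 1.22 CPM of miR-8908b, 1.53 CPM of miR-8908a-3p, 2.04 CPM of miR-8908d and 1.22 CPM of miR-8908a-5p, while the other control libraries were at or near 0. It also had reads on 12 of the numbered miRNAs, more than any other control library, or on 8 without the miR-8908 family. The cause was not tested.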

How the results depend on the processing

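The difference in names detected per library, 6.33, was 2.50 at a minimum of 10 counts (p = 0.182, exact permutation test), and 5.60 to 7.33 with a library left out. The share of counts, 0.0468 percentage points higher in HSA, became -120.5 CPM on the TMM scale (p = 0.496, exact permutation test) and 0.0224 points without miR-8859a (p = 0.00216, exact permutation test), and ranged from 0.0327 to 0.0591 with a library left out. The number called higher, 1, became 2 with library size only, 5 with DESeq2 and 0 with a mean of at least 10 CPM, a filter that took miR-8865 out of the test, and it was 1 with each library left out. With library size only and with limma, the log2 fold change turned to 0.13 and 0.087 for miR-8803, 0.28 and 0.29 for miR-8859a, and 0.49 and 0.51 for miR-8859b, scalings that moved the median of all tested miRNAs to 0.97 and 0.74. Apart from the replicate block, direction and side of the threshold were kept for the other results and settings, except for miR-8884 with library size only.

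With the replicate number as a block, 0 of the numbered miRNAs were called and 3 higher and 3 lower over all, with miR-8865 at a log2 fold change of 5.63 (adjusted p = 0.0173 in edgeR). The numbers did not pair the libraries. Deviations of same-numbered libraries correlated at -0.279 to 0.0427, and 0 of 12 libraries correlated best with its own number. Small HSA totals, 3 counts being worth up to 1.35 CPM, limit what can be said of the rare names.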

Other observations

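The titles of the control libraries carry a letter code whose meaning the labels do not give. Control replicates 2 and 5 share 1 code and the other 4 share another. The counts on the miR-8908 family were 59 and 5 in replicates 2 and 5, and 1, 0, 0 and 0 in replicates 1, 3, 4 and 6. The HSA titles carry no such code, and the difference between the codes was not tested.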
